A study of Homo sapiens with 17 samples.

Results

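The insulin-like growth factor (IGF) genes described here are the ligand IGF2, the receptors IGF1R and INSR, the receptor adaptors IRS1 and IRS2, and the binding proteins IGFBP3, IGFBP4, IGFBP5, IGFBP6 and IGFBP7. They were taken by gene symbol, and all 10 are among the 27315 genes of the deposited table. A gene was tested where its mean over the 17 libraries lay at least 1 log2 unit above the floor of 5.14, which 12484 genes and 9 of the 10 did. INSR did not, and its tests come from a fit without that filter over the 19292 genes that vary between libraries.

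All libraries were of 786-O, a human clear cell renal carcinoma line in which VHL, part of the ligase that tags HIF alpha proteins for degradation, is inactive. Cells grew in medium with serum and carried the lentiviral vector pLenti CRISPR-V2 with Cas9 and a single guide RNA, under antibiotic selection. The HIF2a experiment held guides sg4 and sg6 against HIF2a (gene EPAS1) and a scrambled-guide control (sgscr), with 3 libraries each. The USP37 experiment held guides sg3 and sg9 against the deubiquitinase USP37, with 3 libraries each, and its own scrambled control with 2. The source of replicates is not stated beyond triplicate RNA, so p-values reflect only how far these libraries spread, which may be technical. The labels do not say whether cells were clones or pools.

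IGF2 is a secreted ligand that signals through the tyrosine kinase receptors IGF1R and INSR, while IGF2R takes it up for breakdown. The activated receptors phosphorylate the adaptors IRS1 and IRS2, which recruit PI3-kinase and so feed AKT, mTOR and the FOXO transcription factors. The binding proteins hold IGFs outside the cell, and proteases that cut them set the ligand free. IGFBP1, IGFBP3 and several other genes of the system are known to respond to hypoxia in many cells.

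The values are the authors' variance-stabilised log2 values, in which 1 unit is a doubling for well expressed genes and less near the floor. Read depth is unknown, and the values are not per length, so levels are compared between groups and not between genes. EPAS1 was lower with both guides against it (-1.97 for the guides' mean, limma adjusted p = 2.21e-12) and also under the guides to USP37 (-0.72, limma adjusted p = 6.6e-05). The mRNA of USP37 was lower with its own guides (limma adjusted p = 1.22e-05) and, by -0.44, with the HIF2a guides (limma adjusted p = 0.00903). The last call was lost without the 3 libraries farthest from their groups (-0.26, limma adjusted p = 0.156). Leaving out HIF2a control library 1 or 2 also ended it, at -0.39 and -0.36 (limma adjusted p = 0.0625 and 0.0657). Of 8 renal carcinoma line markers, 7 passed the filter and the proximal tubule gene LRP2 sat at the floor. Of 7 markers of the 293T packaging line 2 passed, NEFL at 10.55 to 11.95 and ZIC2 at 7.77 to 8.46, and the other 5 stayed at or below 6.06. The list mean lay between 6.38 and 6.71. NEFL was lower with the HIF2a guides (-0.70, limma adjusted p = 8.52e-07) and with the USP37 guides (-0.68, limma adjusted p = 9.77e-06), and ZIC2 with the USP37 guides (-0.30, limma adjusted p = 0.0415). None of 6 leukocyte markers passed the filter, and their list mean lay between 5.16 and 5.70. PTPRC at 6.68 and CD3E at 6.78 were above the floor in library 3 of the USP37 control and at or below 5.53 in the other 16 libraries. CD14 was 6.03 to 6.43 with the HIF2a guides against 5.44 to 5.79 in their control, without overlap, and LYZ reached 6.16 in a HIF2a control library. TYROBP stayed at or below 5.43. The part of these genes' sources in the results was not tested. HIF2a sg6 libraries 2 and 3 and HIF2a control library 2 lay farthest from their groups, with median distances of 0.187, 0.187 and 0.142 against 0.0896 to 0.134 elsewhere. Where leaving out these libraries ends or makes a call, the value is given with the result. Without them HIF2a sg6 has a single library left, and without either USP37 control library that control has a single library left.

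Of the 9 tested genes, 7 passed the test with the HIF2a guides (limma adjusted p under 0.05, Benjamini-Hochberg), against 30.6% of all tested genes. IGF2, IGF1R, IGFBP4 and IGFBP7 rose, where 16.1% of all genes rose, and IRS2, IGFBP3 and IGFBP5 fell, where 14.5% did. The same 7 were called with each guide alone in the same direction, as were 16.5% of all genes, and had no overlap of guide and control libraries, as was so for 25.2%. The median absolute log2 difference was 1.05 over the 9 genes and 0.17 over all genes. With the USP37 guides 6 of 9 passed, against 44.3% of all genes. IRS1 and IGFBP5 rose (22.4% of all genes rose) and IRS2, IGFBP3, IGFBP4 and IGFBP7 fell (21.9% fell). In that experiment 5 of 9, all of the called genes but IGFBP4, were called with both guides in the same direction, against 24.8%. Guide and control libraries did not overlap for 6 of 9, against 41.2%. The median absolute difference was 0.62 against 0.26 over all genes.

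**Figure D1:**
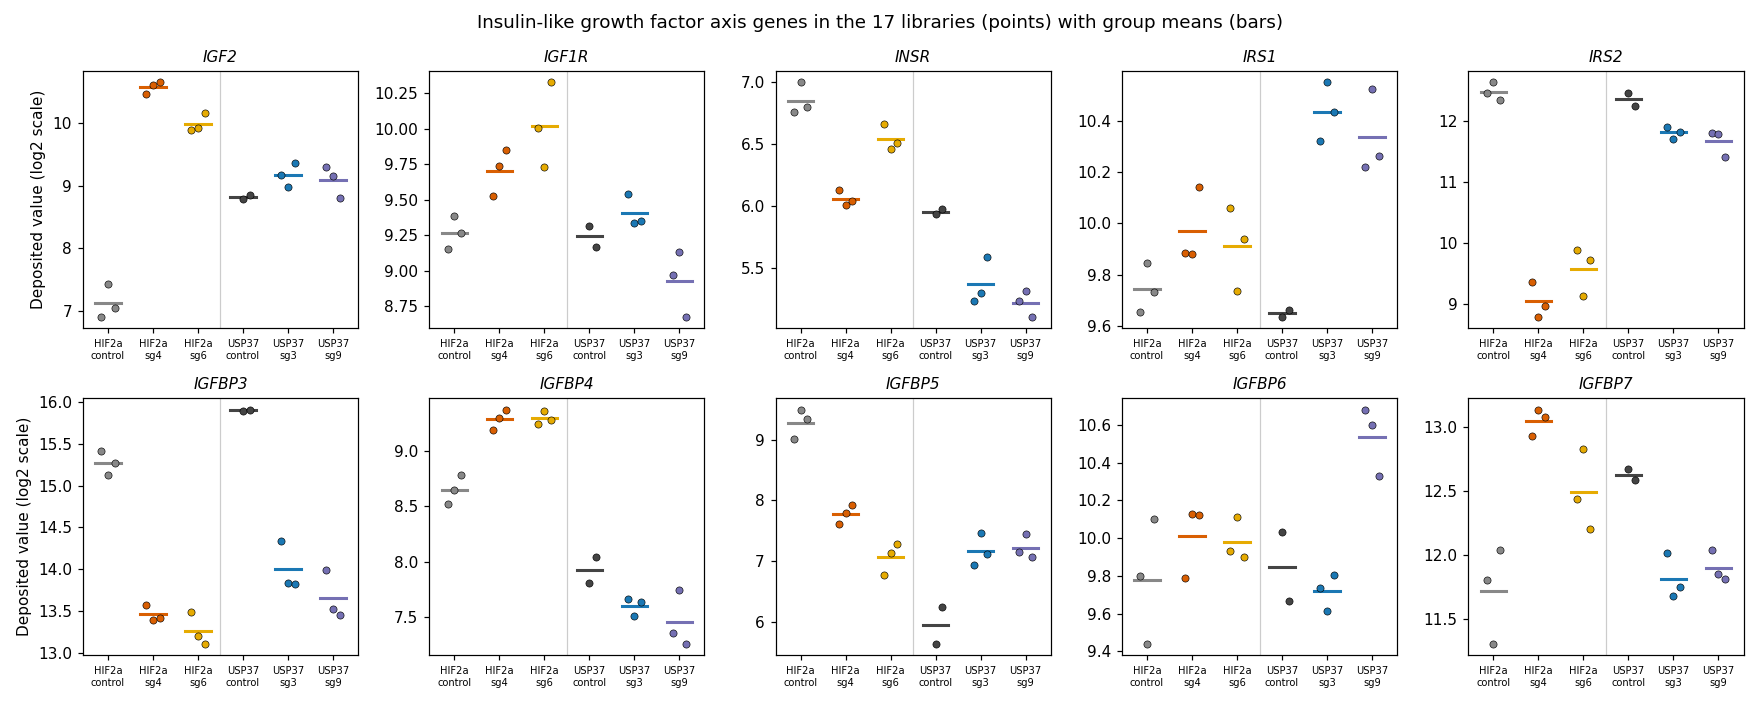
Deposited log2 value of each of the 10 genes in every library (points) and the mean of each group (bars), with the HIF2a experiment left of the vertical line and the USP37 experiment right of it. Vertical axes differ between panels. IGF2 and IRS2 moved apart most in the HIF2a experiment, while IGFBP3 was lower in every guide library of both experiments than in any control library.

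The upstream sequences of IGFBP3, IRS2 and IGF1R are shown because IGFBP3 and IRS2 fell in both experiments and IGF1R had the most matches to the HIF core motif among these genes. They are the 250 bases before the RefSeq start in build GRCh38.p14, at chr7:45921273-45921522 on the minus strand, chr13:109786584-109786833 on the minus strand and chr15:98648289-98648538 on the plus strand. Capitals mark ACGTG or GCGTG, the core of the hypoxia response element, read on either strand (CACGT and CACGC on the other).
IGFBP3: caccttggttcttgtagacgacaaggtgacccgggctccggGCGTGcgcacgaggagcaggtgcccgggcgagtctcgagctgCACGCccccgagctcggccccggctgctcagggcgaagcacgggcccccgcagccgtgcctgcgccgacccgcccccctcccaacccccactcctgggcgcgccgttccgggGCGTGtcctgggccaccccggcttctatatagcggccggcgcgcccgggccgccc
IRS2: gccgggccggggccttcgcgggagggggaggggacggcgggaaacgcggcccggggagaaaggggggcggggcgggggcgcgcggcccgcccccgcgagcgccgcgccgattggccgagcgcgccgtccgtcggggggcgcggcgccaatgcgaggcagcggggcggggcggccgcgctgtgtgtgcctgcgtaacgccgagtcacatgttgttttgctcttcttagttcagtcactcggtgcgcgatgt
IGF1R: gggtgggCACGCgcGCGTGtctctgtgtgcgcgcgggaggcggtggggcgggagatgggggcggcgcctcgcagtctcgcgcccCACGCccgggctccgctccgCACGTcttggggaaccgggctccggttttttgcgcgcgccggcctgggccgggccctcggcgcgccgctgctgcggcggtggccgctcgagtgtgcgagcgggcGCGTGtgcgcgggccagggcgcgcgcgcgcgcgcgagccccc
IGFBP3 held 3 matches, at positions -209, -167 and -55 relative to the start, IGF1R held 5, and IRS2 held none. RefSeq gave promoters for 8 of the 10 genes, of which IGFBP3, IGF1R and IRS1 (1 match) held a core, against 43.2% of 35116 promoters of the same length. A match of 5 letters is a description of the window and not a binding site. Of the 3 genes with a match, IGFBP3 fell with the HIF2a guides, IGF1R rose and IRS1 was not called. The part of the motif in these changes was not tested.

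IGF2, the ligand, rose with the HIF2a guides. Its value was 6.91, 7.43 and 7.05 in HIF2a control libraries 1 to 3. With sg4 it was 10.46, 10.60 and 10.65, and with sg6 9.88, 9.92 and 10.15. Every guide library lay more than 2 units above every control library, and the guides did not overlap each other. The guides' mean was 3.15 above control (SE 0.12, 95% interval 2.90 to 3.40, limma adjusted p = 2.31e-14), the third highest difference among 12484 genes. The difference was 3.44 with sg4 and 2.86 with sg6, and sg6 was lower than sg4 by -0.58 (SE 0.14, limma adjusted p = 0.01). That guide difference missed the threshold without sg4 library 2 (limma adjusted p = 0.0511) or library 3 (limma adjusted p = 0.0532).

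In the USP37 experiment IGF2 was already 8.79 and 8.85 in the control. With sg3 it was 9.18, 8.98 and 9.37, and with sg9 it was 9.30, 9.16 and 8.80. The lowest sg9 library lay between the control libraries. The guides' mean differed from control by 0.31 (SE 0.14, 95% interval 0.02 to 0.60, limma adjusted p = 0.0738) and was not called. It was called in several alternatives, among them the fit of this experiment alone (limma adjusted p = 0.0448) and the one without sg9 library 3 (0.38, limma adjusted p = 0.0239). It was also called without the 3 HIF2a libraries farthest from their groups, which share the fit's spread (limma adjusted p = 0.0285). The USP37 effect minus the HIF2a effect was -2.84 (SE 0.18, 95% interval -3.22 to -2.46, limma adjusted p = 2.32e-10). The controls themselves differed, with the USP37 control higher by 1.69 (SE 0.16, limma adjusted p = 8.79e-08). In order of group means IGF2 ran from HIF2a sg4 and sg6 through USP37 sg3, sg9 and the USP37 control to the HIF2a control. The 3 groups of the USP37 experiment overlapped their neighbours in that order and the others did not.

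INS-IGF2 is a readthrough transcript that overlaps IGF2, and reads from their shared exons cannot be assigned with certainty to either. The library kit does not mark strand, so IGF2-AS and IGF2 reads cannot be told apart by strand either. INS-IGF2 was 6.02, 6.25 and 6.17 in the HIF2a control, 8.28, 8.47 and 8.58 with sg4, and 7.97, 8.0 and 8.24 with sg6. It rose with the HIF2a guides by 2.11 (SE 0.12, limma adjusted p = 5.35e-12), with every guide library above every control. With the USP37 guides it was 0.33 above control (SE 0.13, limma adjusted p = 0.0496) with libraries that overlapped. That call sat at the threshold and was lost without USP37 control library 3 (0.20, limma adjusted p = 0.397), without the 3 HIF2a libraries farthest from their groups (limma adjusted p = 0.0504) and in most other alternatives. Over the 17 libraries INS-IGF2 was the gene most correlated with IGF2 (Pearson r 0.982), followed by CDH13 (0.958) and IL18 (0.954). H19, the imprinted neighbour of IGF2, had group means of 5.24 to 5.82, and IGF2-AS of 5.13 to 5.55, both below the filter. IGF1 and INS, the other ligands, held the single floor value of 5.14 in every library, as did INSL4. IGFALS, which stabilises IGF complexes in serum, IGFBPL1 and the orphan receptor INSRR had group means of at most 5.67, all below the filter.

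IGF1R, the main signalling receptor for IGF2, was 9.15, 9.38 and 9.26 in the HIF2a control. It was 9.52, 9.74 and 9.85 with sg4 and 10.0, 9.73 and 10.32 with sg6. All 6 guide libraries were above all 3 controls, and the guides overlapped each other. IGF1R rose by 0.59 (SE 0.12, 95% interval 0.35 to 0.84, limma adjusted p = 0.000519). The sg4 difference alone (0.44, limma adjusted p = 0.021) missed the threshold without sg4 library 2, sg4 library 3 or control library 1 (limma adjusted p = 0.0719, 0.107 and 0.0933).

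With the USP37 guides IGF1R did not pass the test as a mean (-0.07, 95% interval -0.36 to 0.21, limma adjusted p = 0.681). Its values were 9.31 and 9.17 in the control, 9.54, 9.33 and 9.35 with sg3, and 8.97, 9.13 and 8.68 with sg9. The sg3 libraries all lay above the control and the sg9 libraries all lay below it. Neither guide alone was called (0.17 with sg3 and -0.32 with sg9, limma adjusted p = 0.093 for sg9), though sg9 was called without the 3 HIF2a libraries farthest from their groups (limma adjusted p = 0.0345). The guides differed from each other by -0.48 (SE 0.14, limma adjusted p = 0.0111), a call lost without sg3 library 1 (limma adjusted p = 0.0553) or sg9 library 3 (limma adjusted p = 0.0768). The effects of the HIF2a and USP37 guides on IGF1R differed by -0.67 (SE 0.18, limma adjusted p = 0.0058), and the controls were not called different (-0.02, limma adjusted p = 0.913). ATP9B, TMEM178B and TTC28 had the patterns most like IGF1R over the 17 libraries (Pearson r 0.953, 0.948 and 0.947).

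INSR, the insulin receptor, whose A isoform also binds IGF2, was measured near the floor, where differences are understated. In the HIF2a control it was 6.76, 7.0 and 6.80. With sg4 it was 6.13, 6.01 and 6.04, and with sg6 6.67, 6.46 and 6.51. All guide libraries lay below all controls. In the fit without the filter, where 21.3% of genes were called, INSR fell by 0.55 with the HIF2a guides (SE 0.10, limma adjusted p = 0.000475). The sg4 difference was -0.79, and that of sg6 was -0.31 and was not called (limma adjusted p = 0.0675). INSR was also lower with the USP37 guides, where 30.3% of genes were called without the filter. It was 5.94 and 5.98 in that control, 5.24, 5.30 and 5.59 with sg3, and 5.24, 5.32 and 5.11 with sg9. Again no guide library reached a control, and the guides' mean differed by -0.66 (SE 0.11, limma adjusted p = 0.000309). The difference between the effects was -0.11 (95% interval -0.42 to 0.21, limma adjusted p = 0.657). The USP37 control was lower than the HIF2a control by -0.89 (limma adjusted p = 6.14e-05). IGF2R, the receptor that removes IGF2, was not called with the HIF2a guides (-0.11, limma adjusted p = 0.536). With USP37 sg3 IGF2R rose by 0.64 (limma adjusted p = 0.00297), with sg9 it was -0.30 (limma adjusted p = 0.117), and sg9 lay below sg3 by -0.94 (limma adjusted p = 8.15e-05).

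IRS2, an adaptor of the insulin and IGF receptors, fell in both experiments. Its value was 12.47, 12.63 and 12.35 in the HIF2a control. With sg4 it was 9.37, 8.80 and 8.97, and with sg6 9.88, 9.13 and 9.72. Guide and control libraries were separated by more than 2 units, while sg4 and sg6 overlapped. IRS2 fell by 3.17 (SE 0.14, 95% interval -3.46 to -2.88, limma adjusted p = 1.66e-13), the 13th lowest difference of all tested genes. Tested genes of chromosome 13, where IRS2 lies, had a median difference of -0.19 over 207 genes in the same comparison. With sg6 IRS2 was 0.53 above sg4 (SE 0.16, limma adjusted p = 0.0412), a call lost without sg4 library 2 (0.41, limma adjusted p = 0.225) and under several other alternatives.

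In the USP37 control IRS2 was 12.47 and 12.25, close to the HIF2a control (difference -0.12, limma adjusted p = 0.614). With sg3 it was 11.91, 11.71 and 11.82, and with sg9 11.81, 11.78 and 11.41. All 6 guide libraries were below both controls. The difference of -0.62 (SE 0.16, 95% interval -0.95 to -0.28, limma adjusted p = 0.00379) was less of a fall than with the HIF2a guides, by 2.55 (SE 0.21, limma adjusted p = 9.73e-09). Without USP37 control library 2 it was -0.51 and was no longer called, in a fit with a single USP37 control library left. TGFA, TMEM47 and SEMA6A followed IRS2 most closely over the 17 libraries (Pearson r 0.99, 0.989 and 0.986). IRS2 and IGF2 were opposed over the same libraries (Pearson r -0.84), a description that rests on the same 6 groups.

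IRS1, the other main adaptor, rose with the USP37 guides. It was 9.64 and 9.66 in the USP37 control, 10.32, 10.55 and 10.44 with sg3, and 10.22, 10.52 and 10.26 with sg9. Every guide library exceeded both controls by more than 0.5 units. The rise was 0.74 (SE 0.11, 95% interval 0.51 to 0.96, limma adjusted p = 1.67e-05). With the HIF2a guides IRS1 was not called (0.20, 95% interval 0.00 to 0.39, limma adjusted p = 0.118). Its HIF2a control libraries, 9.66, 9.85 and 9.73, overlapped sg4 at 9.89, 9.88 and 10.14 and sg6 at 10.06, 9.74 and 9.94 as a set, since sg6 library 2 lay among them. IRS1 was called without that library (0.24, limma adjusted p = 0.0429) and without the 3 libraries farthest from their groups (0.32, limma adjusted p = 0.0272). The effects differed by 0.54 (SE 0.14, limma adjusted p = 0.00491), and the controls were not called different (-0.09, limma adjusted p = 0.556). PEG10, KITLG and ADAT1 had the patterns most like IRS1 (Pearson r 0.95, 0.938 and 0.937).

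**Figure D2:**
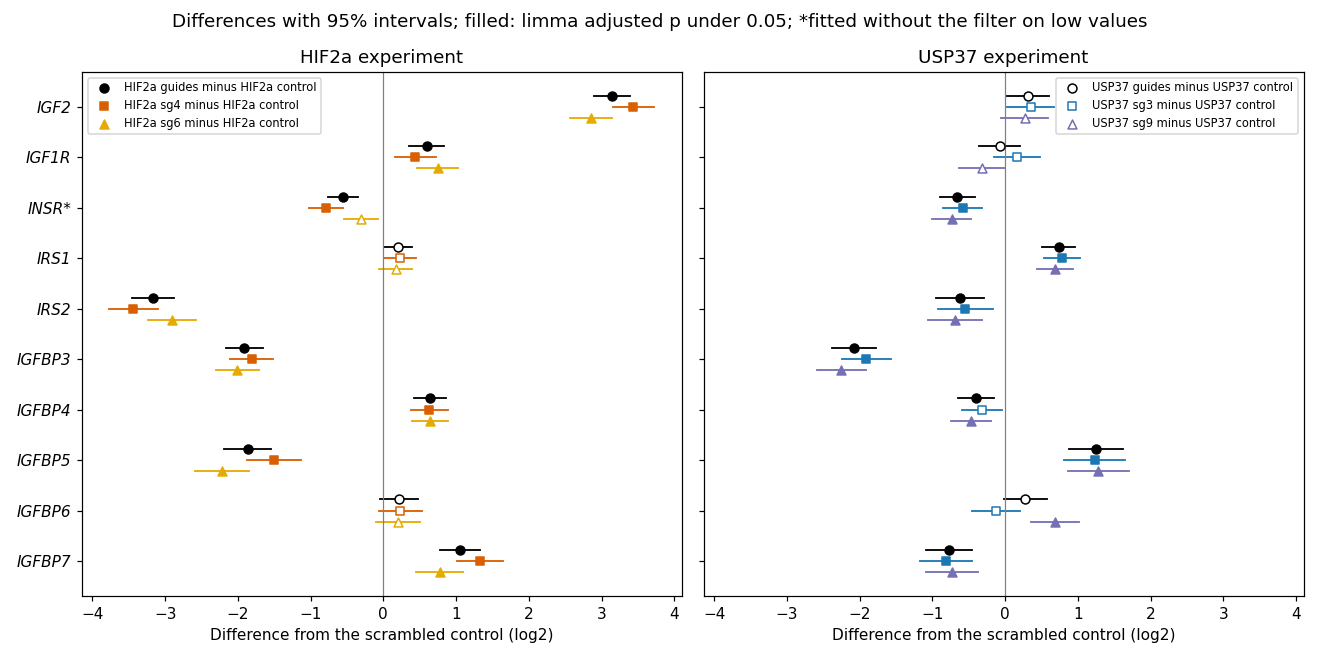
Difference of each gene from its own scrambled control (horizontal axis, log2) for the mean of both guides and for each guide alone, with 95% intervals from limma. Filled symbols passed an adjusted p of 0.05, and INSR was fitted without the filter on low values. IGFBP3 was near -2 in both panels, while IGFBP4, IGFBP5 and IGFBP7 lay on opposite sides of 0.

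IGFBP3, the main carrier of IGFs in serum, fell in both experiments, by amounts that were not called different. It was 15.42, 15.13 and 15.27 in the HIF2a control, 13.57, 13.40 and 13.41 with sg4, and 13.49, 13.20 and 13.11 with sg6. In the USP37 control it was 15.90 and 15.91, with sg3 14.34, 13.83 and 13.82, and with sg9 13.99, 13.52 and 13.45. No guide library of either experiment came within 0.5 units of any control library. The HIF2a difference was -1.91 (SE 0.12, 95% interval -2.17 to -1.65, limma adjusted p = 9.35e-11), the 51st lowest of all genes. The USP37 difference was -2.08 (SE 0.14, 95% interval -2.38 to -1.78, limma adjusted p = 1.51e-09), the 13th lowest. Their difference was -0.17 (SE 0.19, 95% interval -0.56 to 0.23, limma adjusted p = 0.51), which in this fit leaves room for either effect to be the larger. With the replicate number as a block it was -0.29 (SE 0.13, limma adjusted p = 0.0926), again not called. The USP37 control stood 0.63 above the HIF2a control (limma adjusted p = 0.00361). ATP1B1, CA12 and CAMK2N1 followed IGFBP3 most closely (Pearson r 0.993, 0.957 and 0.956).

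IGFBP1, the gene next to IGFBP3 in RefSeq, encodes a binding protein known as a FOXO and hypoxia target in liver. It was 8.95, 8.40 and 8.60 in the HIF2a control, 6.10, 6.04 and 5.94 with sg4, and 5.81, 5.97 and 6.0 with sg6. IGFBP1 fell by 2.67 (SE 0.14, limma adjusted p = 4.32e-12) to near the floor, where the scale understates a fall. In the USP37 experiment it was 7.92 and 7.88 in the control, 7.52, 6.88 and 6.76 with sg3, and 6.78, 6.99 and 7.02 with sg9. All guide libraries were lower, by -0.91 on average (SE 0.17, limma adjusted p = 0.000188). IGFBP2, the neighbour of IGFBP5, stayed between 5.12 and 5.93 in every library and below the filter. Within that range it was 5.57 to 5.93 with sg4 and 5.53 to 5.62 with sg6, against 5.12 to 5.50 in the HIF2a control.

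**Figure D3:**
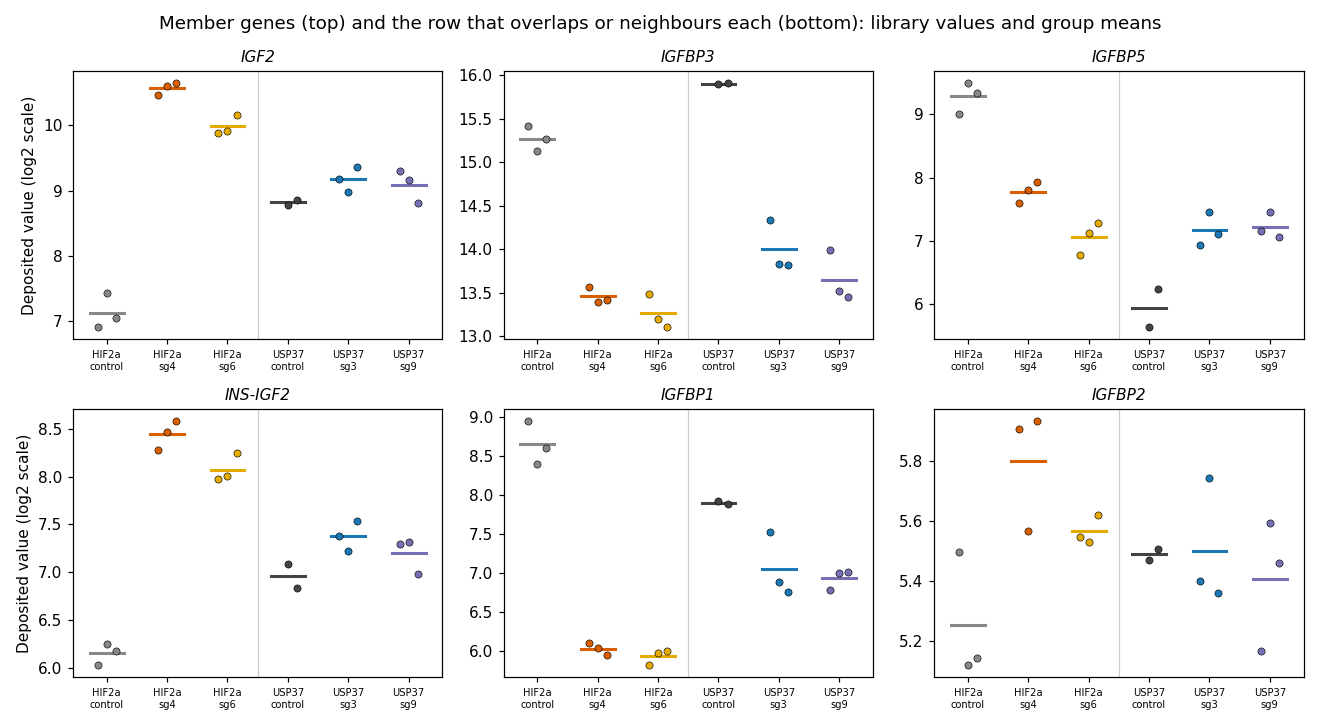
Library values (points, log2) and group means (bars) of IGF2, IGFBP3 and IGFBP5 in the upper panels, and below each the row that overlaps or neighbours it, INS-IGF2, IGFBP1 and IGFBP2. Vertical axes differ. INS-IGF2 ordered the groups as IGF2 did, IGFBP1 was lower with all guides as IGFBP3 was, and IGFBP2 lay within 1 unit of the floor throughout.

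IGFBP5, a binding protein held in the extracellular matrix, moved in opposite directions in the 2 experiments. It was 9.01, 9.50 and 9.35 in the HIF2a control, 7.60, 7.80 and 7.93 with sg4, and 6.78, 7.13 and 7.28 with sg6. All guide libraries were below the controls, and those of sg6 were below those of sg4. IGFBP5 fell by 1.86 (SE 0.15, 95% interval -2.19 to -1.54, limma adjusted p = 4.34e-09). The sg6 libraries were lower than sg4 by -0.71 (SE 0.18, limma adjusted p = 0.0145), a call lost without sg4 library 2, sg4 library 3 or sg6 library 1 (limma adjusted p = 0.0612, 0.0747 and 0.0856). In the USP37 control IGFBP5 was only 5.64 and 6.24. It was 6.94, 7.46 and 7.11 with sg3 and 7.15, 7.45 and 7.06 with sg9. Every guide library was higher than both controls, and the rise was 1.26 (SE 0.18, 95% interval 0.88 to 1.63, limma adjusted p = 1.28e-05).

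The USP37 control was below the HIF2a control by -3.34 (SE 0.20, limma adjusted p = 4.1e-10), the lowest of all 12484 differences between the controls. With USP37 control library 2 alone that difference was -3.65. The guides of the USP37 experiment and HIF2a sg6 reached group means of 7.06 to 7.22, which overlapped. HIF2a sg4 averaged 7.78 and lay above them without overlap. The effects differed by 3.12 (SE 0.24, limma adjusted p = 2.23e-09), each taken from its own control. The part of the control difference in this was not tested. The control and the experiment cannot be told apart here, since each experiment has its own scrambled guide libraries. ATXN7L3B, CDV3 and CACNB4 had the patterns most like IGFBP5 (Pearson r 0.934, 0.93 and 0.901).

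IGFBP4, a binding protein that restrains IGF action until the protease PAPPA cuts it, rose with the HIF2a guides. It was 8.53, 8.65 and 8.78 in the HIF2a control, 9.19, 9.30 and 9.37 with sg4, and 9.24, 9.36 and 9.28 with sg6. The guides overlapped each other and lay wholly above the control, with a rise of 0.64 (SE 0.10, 95% interval 0.42 to 0.86, limma adjusted p = 5.93e-05). The USP37 libraries held less of it in every group. IGFBP4 was 7.81 and 8.04 in that control, 7.66, 7.51 and 7.63 with sg3, and 7.36, 7.74 and 7.26 with sg9. The difference was -0.40 (SE 0.12, 95% interval -0.65 to -0.15, limma adjusted p = 0.0108). It was called with sg9 alone (-0.47, limma adjusted p = 0.00668) and not with sg3 alone (-0.32, limma adjusted p = 0.0673). Without control library 3 the difference of the guides' mean was -0.28 and was not called, in a fit with a single control library left. The effects differed by -1.04 (SE 0.16, limma adjusted p = 3.36e-05) and the controls by -0.73 (limma adjusted p = 0.000231). ISM1, PELP1 and MINK1 followed IGFBP4 most closely (Pearson r 0.983, 0.982 and 0.98).

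IGFBP7, a secreted protein that binds IGFs weakly and is also made by vessel walls, rose with the HIF2a guides and fell with the USP37 guides. In the HIF2a control it was 11.81, 11.30 and 12.03. It was 12.93, 13.13 and 13.08 with sg4 and 12.43, 12.83 and 12.20 with sg6. No guide library overlapped the control, and sg4 lay above sg6 throughout. The rise was 1.05 (SE 0.13, 95% interval 0.78 to 1.33, limma adjusted p = 2.38e-06), with sg6 below sg4 by -0.56 (SE 0.15, limma adjusted p = 0.0247). The guide difference was not called without sg6 library 3 (-0.42, limma adjusted p = 0.104) or in several other alternatives. In the USP37 experiment IGFBP7 was 12.67 and 12.58 in the control, 12.02, 11.68 and 11.75 with sg3, and 12.04, 11.85 and 11.81 with sg9. All guide libraries were lower, by -0.77 on average (SE 0.15, 95% interval -1.09 to -0.45, limma adjusted p = 0.000426). The effects differed by -1.82 (SE 0.20, limma adjusted p = 6.06e-07). The USP37 control was 0.91 above the HIF2a control (limma adjusted p = 0.000287), and the USP37 guide groups overlapped the HIF2a control. PDZK1IP1, GPR108 and FCAMR had the patterns most like IGFBP7 (Pearson r 0.927, 0.923 and 0.906).

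IGFBP6, which prefers IGF2 over IGF1 as ligand, differed between the USP37 guides. It was 10.03 and 9.67 in the USP37 control, 9.74, 9.61 and 9.81 with sg3, and 10.68, 10.60 and 10.33 with sg9. The sg9 libraries were above those of every other group, while the sg3 libraries overlapped the control. With sg9 IGFBP6 rose by 0.69 (limma adjusted p = 0.00143), and with sg3 it differed by -0.13 (limma adjusted p = 0.555). The guides differed by 0.82 (SE 0.14, limma adjusted p = 0.000327), while their mean was not called (0.28, 95% interval -0.02 to 0.57, limma adjusted p = 0.12). Without USP37 control library 3 the sg9 rise was 0.50 (limma adjusted p = 0.0504). The mean of the guides was called when the experiment was fitted alone (limma adjusted p = 0.0358) and without the 3 HIF2a libraries farthest from their groups (limma adjusted p = 0.0434). In the HIF2a experiment IGFBP6 was 9.80, 9.44 and 10.10 in the control, 9.79, 10.13 and 10.12 with sg4, and 9.93, 10.11 and 9.90 with sg6. These groups overlapped, and the difference of 0.22 (95% interval -0.04 to 0.47, limma adjusted p = 0.199) was not called. It was called without control library 3 (0.38, limma adjusted p = 0.0329). TMEM256, PNKD and BCL7C had the patterns most like IGFBP6 (Pearson r 0.928, 0.899 and 0.892).

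Set against each other, the experiments called IRS2 and IGFBP3 lower in both, 2 of the 9 tested genes against 4.77% of all genes. INSR was lower in both as well in the fit without the filter. IGFBP4, IGFBP5 and IGFBP7 were called in opposite directions, 3 of 9 against 6.82% of all genes. For IGFBP4 the USP37 fall was called with sg9 and not with sg3. None of the 9 was called higher in both, as 3.65% of all genes were. The effects of the USP37 and HIF2a guides differed for 7 of 9, all but IGFBP3 and IGFBP6, against 38.6% of all genes. The controls differed for IGF2, IGFBP3, IGFBP4, IGFBP5 and IGFBP7, 5 of 9 against 40.5%. Guides to the same target were called different at 4 of 9 genes for sg6 against sg4, where 9.22% of all genes were called, and 2 of 9 for sg9 against sg3, where 30.8% were. The sg6 against sg4 count fell to 0 without sg4 library 2 or without sg4 library 3. For IGF1R, IRS1 and IRS2 the effects were called different and the controls were not. USP37 control library 3, which held the PTPRC and CD3E signal, changed no call among IRS1, IRS2, IGFBP3, IGFBP5 and IGFBP7 when left out. Without it their USP37 differences were 0.75, -0.73, -2.07, 1.56 and -0.81.

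The proteases that release IGFs from their binding proteins, and the stanniocalcins that inhibit them, were all tested. Of these 7 genes 2 rose and 3 fell with the HIF2a guides (median -0.14), and 3 rose and 2 fell with the USP37 guides (median 0.34). Of all tested genes 30.6% and 44.3% were called in these comparisons. With the HIF2a guides PAPPA rose by 0.93 (limma adjusted p = 7.88e-06) and its relative PAPPA2 fell by 0.89 (limma adjusted p = 1.32e-05). PAPPA was 5.64 to 6.02 in the HIF2a control and PAPPA2 5.13 to 5.67 with sg6, near the floor, where differences are understated. The serine protease HTRA1 fell by 0.94 with the HIF2a guides (limma adjusted p = 1.46e-06). In the USP37 experiment HTRA1 averaged 12.93 in the control, 12.72 with sg3 and 12.46 with sg9, and the sg3 libraries overlapped the control. STC1, an inhibitor of PAPPA, fell in both experiments, with a difference of -0.65 (limma adjusted p = 0.000515) under the HIF2a guides and of -1.42 (limma adjusted p = 2.82e-07) under the USP37 guides. The other stanniocalcin, STC2, went the other way in its group means. It averaged 10.02 in the HIF2a control, 10.39 with sg4 and 10.75 with sg6. In the USP37 experiment it averaged 10.16 in the control, 10.73 with sg3 and 10.47 with sg9. The USP37 guides raised the metalloproteases ADAMTS1 by 1.49 (limma adjusted p = 6.81e-09) and ADAM12 by 0.83 (limma adjusted p = 3.88e-06). Neither was called with the HIF2a guides (-0.14 and 0.09). Of the 7 protease and stanniocalcin genes, 3 were called higher and 2 lower in the USP37 control when the controls were compared. Among them were STC1 (1.31 higher), HTRA1 (1.33 higher) and ADAMTS1 (-1.51). PAPPA averaged 5.83 in the HIF2a control and 6.37 in that of USP37. For ADAM12 these control means were 9.44 and 8.97. The part of these control differences in the guide effects was not tested. IGF2BP3, which binds IGF2 mRNA, averaged 10.72 in the USP37 control, 10.09 with sg3, 10.02 with sg9 and 9.88 in the HIF2a control. It fell by 0.66 with the USP37 guides (limma adjusted p = 0.000186) and was not called with the HIF2a guides (-0.03, limma adjusted p = 0.839). For IGF2BP2 the called comparison was the other, a fall with the HIF2a guides (-0.42, limma adjusted p = 0.000632), while the USP37 difference of 0.14 was not called (limma adjusted p = 0.263). With the median of its chromosome taken out the IGF2BP2 fall was -0.19 and not called (limma adjusted p = 0.0974). IGF2BP1 had group means of 5.57 to 6.11, below the filter.

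Genes that act after the receptors were described in the same way. Of 15 tested adaptor and feedback genes 3 rose and 2 fell in each experiment (medians 0.13 and 0.10), against 30.6% of all genes called with the HIF2a guides and 44.3% with the USP37 guides. SOCS1, which binds IRS proteins and marks them for breakdown, rose by 1.27 (limma adjusted p = 8.3e-08) with the HIF2a guides. In the USP37 experiment SOCS1 was 7.19 to 7.40 in the control, 7.46 to 7.69 with sg3 and 8.02 to 8.55 with sg9. The adaptors SH2B2 and GRB14 rose with the HIF2a guides by 0.91 (limma adjusted p = 0.000293) and 0.58 (limma adjusted p = 5.07e-05), and SOCS3 rose with the USP37 guides by 0.59 (limma adjusted p = 0.000294). Of 23 PI3-kinase, AKT, mTOR and FOXO genes, 2 rose and 7 fell with the HIF2a guides, and 2 rose and 2 fell with the USP37 guides (medians -0.10 and -0.03), against the same 30.6% and 44.3%. FOXO1, a transcription factor that AKT keeps out of the nucleus, rose by 0.62 (limma adjusted p = 0.00132) with the HIF2a guides. In the USP37 experiment FOXO1 was not called (-0.30, limma adjusted p = 0.118).

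**Figure D4:**
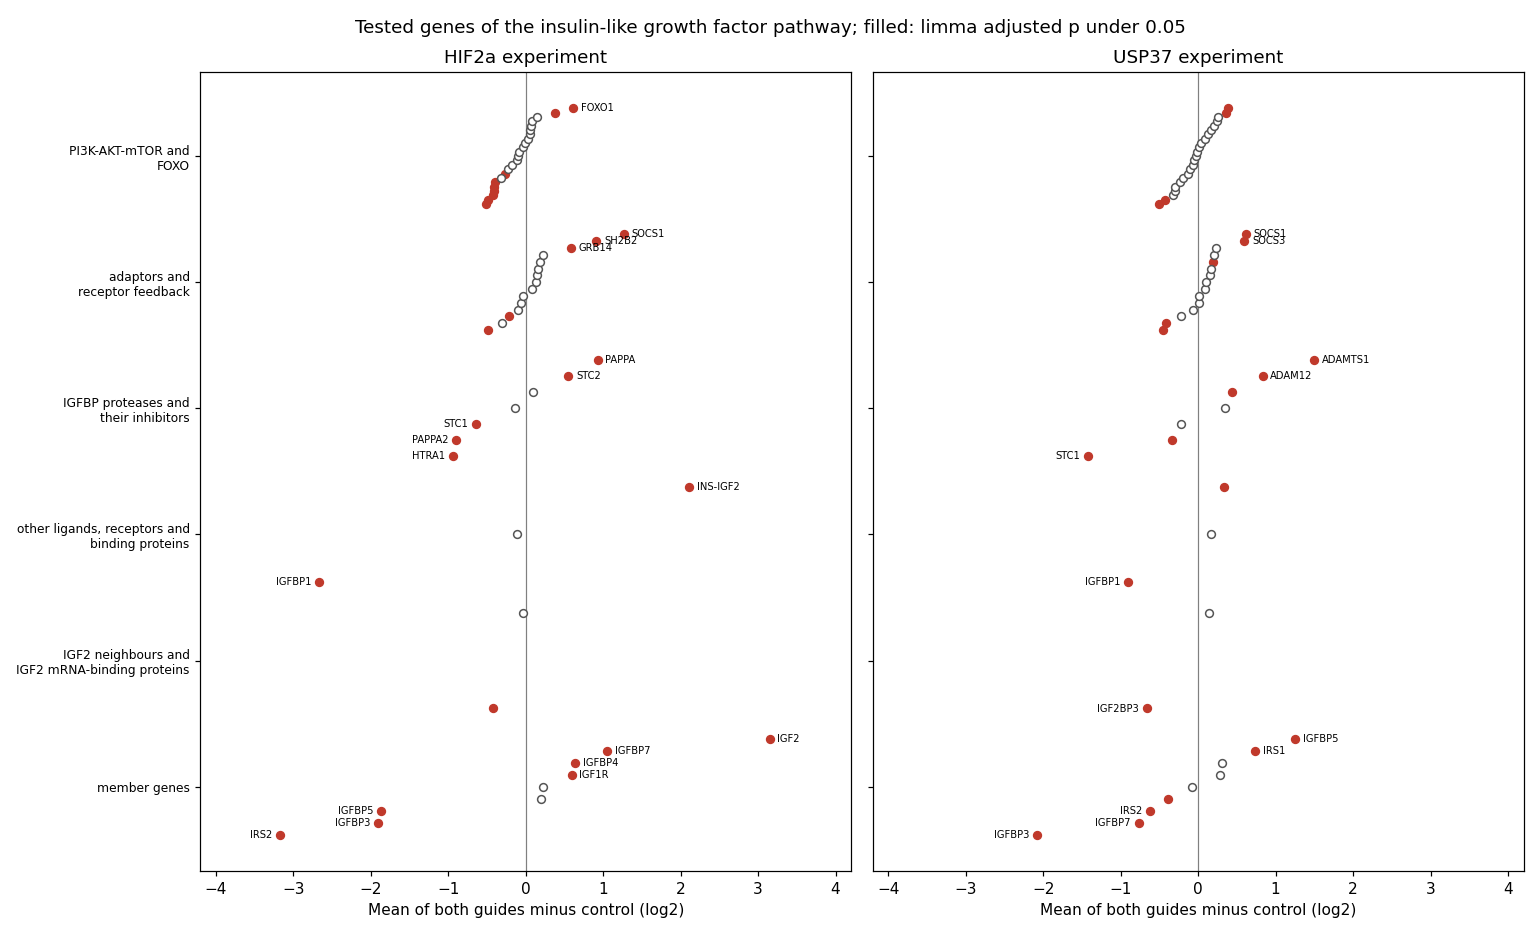
Mean difference of both guides from the scrambled control (horizontal axis, log2) for every tested gene of the IGF pathway lists, by list, in the HIF2a experiment (left) and the USP37 experiment (right). Filled points passed a limma adjusted p of 0.05. IGF2, IRS2 and IGFBP1 lay farthest from 0 in the HIF2a experiment, and most PI3-kinase and AKT genes lay within 0.5 units of 0 in both.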

How the data were processed

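Polyadenylated RNA was measured in 17 libraries of 786-O cells. The authors deposited a table of batch-corrected, variance-stabilised log2 values, the only unit used here. Per the submitters' processing notes the tools were STAR 2.5.2b, Salmon, DESeq2 and cutadapt, and the build hg19, with no roles given. Depth is unknown, so no interval that needs it is given. For every gene the means over libraries numbered 1, 2 and 3 were equal within 6.4e-14, so a replicate-number term had been taken out.

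Group means were fitted with limma 3.58.1 in R 4.3.3 (empirical Bayes with trend, 11 residual degrees of freedom) over 12484 genes. P-values are Benjamini-Hochberg adjusted within a contrast. The removed term is not counted, which tends to make them too small. The USP37 control has no library 1, so replicate numbers are not balanced over its groups. With the replicate number as a block the USP37 difference of IGFBP3 was -2.20 in place of -2.08 (limma adjusted p = 7.52e-12 against 1.51e-09). That of IGFBP4 was -0.36 in place of -0.40 (limma adjusted p = 0.0317 against 0.0108). The part of the missing library in this was not tested. The fit recovered known changes in simulated data with independent noise, from which no replicate-number term was taken out. That test cannot show how the removed term acts on the p-values. Correlations of same-numbered libraries' deviations ran from -0.547 to 0.222 over 16 pairs within an experiment, 5 of them over 0.1. Removing that term pulls them down, so low values do not show that the numbers pair nothing. Between sg4 and sg6 all 3 pairs were over 0.1 (0.107 to 0.212), and with the replicate number as a block the count called between these guides was again 4 of 9.

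The genes and lists were chosen with earlier results of these data known. From each list, genes called in the guides' mean and in both guides alone, with a change of at least 0.5, are named, up to 4 a list, and 1 gene that this names is not reported here. INS-IGF2, IGF2-AS, H19 and other ligands, receptors and binding proteins are always described. IGF2BP2, STC2 and the leukocyte markers with values were singled out after their values were seen. Figures were drawn with matplotlib 3.10.9.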

Additional observations from a re-analysis of the deposited data

Results flagged for a closer look

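For 7 of the 9 tested genes the effect of the USP37 guides differed from that of the HIF2a guides in a direct test of the difference (limma interaction contrast, Benjamini-Hochberg over 12484 genes), against 38.6% of all genes. IGFBP5 differed by 3.12 (limma adjusted p = 2.23e-09), falling in 6 of 6 HIF2a guide libraries and rising in 6 of 6 USP37 guide libraries relative to their controls. IGF2 differed by -2.84 (limma adjusted p = 2.32e-10) and IRS2 by 2.55 (limma adjusted p = 9.73e-09), in each case with the larger change under the HIF2a guides. IGFBP7 differed by -1.82 (limma adjusted p = 6.06e-07) and IGFBP4 by -1.04 (limma adjusted p = 3.36e-05), both higher with HIF2a guides and lower with USP37 guides. The USP37 fall of IGFBP4 was called with sg9 and not with sg3, and was smaller without USP37 control library 3 (-0.28). IGF1R differed by -0.67 (limma adjusted p = 0.0058) and IRS1 by 0.54 (limma adjusted p = 0.00491), each called with the guides of a single experiment. The scrambled controls also differed for IGF2, IGFBP4, IGFBP5 and IGFBP7, by 1.69, -0.73, -3.34 and 0.91, and the part of this in the effects was not tested.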

How the results depend on the processing

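Counts of called genes among the 9 kept within 1.5 times of the reported value under the alternatives run, except between guides. The alternative without the filter on low values also counted INSR. For sg6 against sg4 (4 called) the count was 2 with each experiment fitted alone and 0 with array weights. Leaving out single libraries gave 0 to 5 for sg6 against sg4 and 1 to 3 for sg9 against sg3. With a replicate block (9 residual degrees of freedom) the counts were 7 with the HIF2a guides, 6 with the USP37 guides, 7 for the difference of effects and 5 between controls. Of the named genes INS-IGF2 with the USP37 guides lost its call under that replicate block (limma adjusted p = 0.0591). Directions turned only in values that were not called. INSR went from -0.11 to 0.0038 for the difference of effects under quantile normalization. IGFBP6 became -0.078 for the difference of effects with chromosome medians taken out, -0.12 without USP37 control library 3, and -0.017 for sg6 without the 3 libraries farthest from their groups. Leaving out single libraries, IGFBP6 ran from -0.12 to 0.24 for the difference of effects and from -0.31 to 0.05 for sg3. The sg3 value was 0.051 without USP37 control library 2. Over all tested genes, the USP37 count of 5525 fell without USP37 control library 2, and the count of 5051 between controls fell without library 3. Each of these fits leaves the USP37 control a single library. Array weights raised the count for sg4 against control from 3159 to 5150. The 1151 genes called for sg6 against sg4 became 573 with array weights and 413 without the 3 farthest libraries, and 500 or 612 without sg4 library 2 or 3. These causes were not tested. Depth is unknown, and the scale compresses INSR, IGFBP1, IGFBP5, PAPPA and PAPPA2 near the floor.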
